A study of Mus musculus with 2 samples.

Results

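Amphiregulin (Areg), its relatives Hbegf, Ereg, Tgfa and Nrg1, their receptors Egfr and Erbb2, and the sheddase Adam17 were followed through the single cells of transplanted mouse hearts. These 8 genes were taken by symbol from the 22337 gene columns of the expression table. The table held 4441 cells sorted into 14 annotated types. Donor hearts were of the Bm12 strain, which differs from C57BL/6 (B6) at an MHC class II locus, and came from il33+/+ (IL-33+) or il33-/- (IL-33-) male mice. All were placed in wild-type B6 male recipients, and graft cells were collected on day 14. Hashtag antibodies told 6 hearts apart, with hearts 1 to 3 labelled IL-33+ (2762 cells) and hearts 4 to 6 labelled IL-33- (1679 cells). The heart was the replicate throughout. Each heart was digested and tagged on its own, and the cells of all 6 were then pooled, so they share 1 gene expression library.

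EGF-family ligands are made as membrane-anchored precursors that are cut free by metalloproteases, of which ADAM17 is the best known. Amphiregulin, epiregulin (Ereg), transforming growth factor alpha (Tgfa) and heparin-binding EGF-like growth factor (Hbegf) bind EGFR, while neuregulin 1 (Nrg1) binds ERBB3 and ERBB4, with ERBB2 as the partner that has no ligand of its own. Amphiregulin is a repair factor of tissue Tregs, group 2 innate lymphoid cells (ILC2s), mast cells and basophils, and EGFR on stromal cells is among its receivers.

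Hearts differed in yield, from 230 cells in heart 2 to 1666 in heart 3, and cells held 1500 to 14977 UMIs (unique molecular identifiers, which count captured transcripts). Levels are given as mean CPM, a gene's UMIs scaled to a fixed total in each cell and then averaged within a heart and type. Il33 itself did not separate the groups in annotated fibroblasts, which held 24.3, 0 and 50.7 CPM in hearts 1 to 3 and 32.6, 73.8 and 16.1 CPM in hearts 4 to 6. Counting was at the 3′ end, and whether that end lies in the deleted part is not given in the sources used here, so this transcript did not check the labels, and every direction below rests on them. Annotated Tregs, which should carry the lineage factor Foxp3, had a Foxp3 UMI in 19.4% of cells, against 14.5% at most in another type (the unconventional T cells). The other Treg markers checked were detected in a larger share of cells elsewhere. Il2ra was found in 28.9% of Tregs and 43.7% of Tem/eff, and Ctla4 in 71.5% and 82.6%. Ikzf2 was found in 48.7% of Tregs and 65.0% of Tcm. Of Tregs 74.9% held 3 or more of 9 Treg markers, and of Tem/eff 91.7%, at a higher depth per cell (median 2860 and 5694 UMIs). By level, the 9 markers summed to 4286 to 4769 CPM in Tregs of hearts labelled IL-33+ and 4570 to 6872 CPM under IL-33-. In Tem/eff the sums were lower, at 2551 to 3659 and 3019 to 3779 CPM. The Il2ra level was highest in Tregs, at 314 CPM. Annotated fibroblasts had a Dcn UMI in 88.3% of cells and a Pdgfra UMI in 65.3%, but 69 of 375 held 3 or more of 10 endothelial markers, with a median of 7 endothelial and 2 of 8 fibroblast markers per cell.

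The 8 genes were spread unevenly over the 14 annotated types. The cells were the interphase of a density gradient used to separate immune cells, and no type was annotated as cardiomyocytes or endothelial cells. Levels in such cells of the graft are not covered here. Areg was highest in Tregs and effector memory T cells (Tem/eff), Nrg1 in monocytes and macrophages, and Hbegf, Ereg, Egfr and Erbb2 in fibroblasts. Tgfa was low, and highest in lymphocytes. Adam17 was found in all 14 types. These differences between types are descriptions without a test, since the types were themselves clusters of the same cells.

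**Figure D1:**
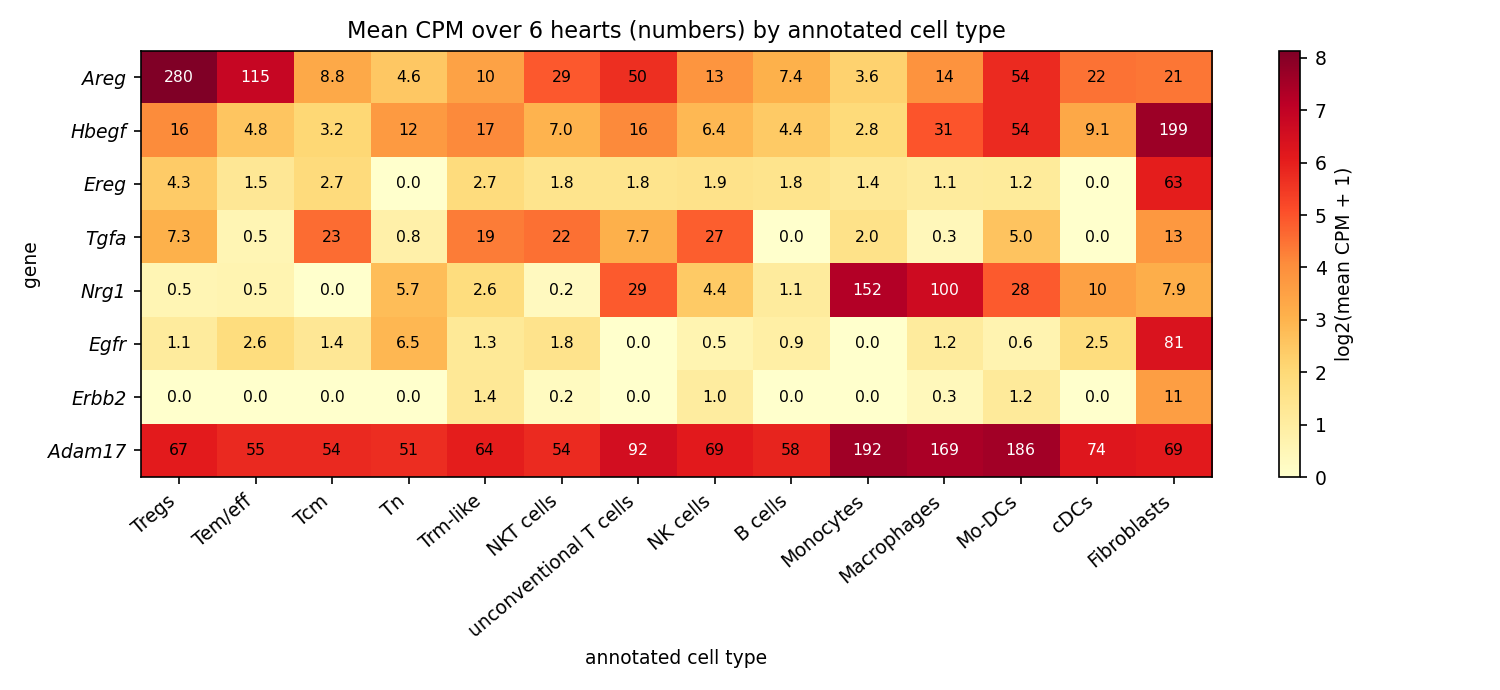
Mean CPM over 6 hearts of each gene (rows) in each of 14 annotated types (columns), with the colour on a log2(mean CPM + 1) scale. Areg peaks at 280 CPM in Tregs, Nrg1 at 152 in monocytes, and Hbegf at 199, Ereg at 63 and Egfr at 81 in fibroblasts.

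Areg lies on mouse chromosome 5 (chr5:91139599-91148432, forward strand, GRCm38), 46.0 kb downstream of the end of Ereg, its neighbour on the same strand. The 250 bases before the Areg start, from RefSeq (build GRCm38.p6, chr5:91139349-91139598, forward strand), are shown because Areg is the gene the study turns on. Capitals mark a cAMP response element (TGACGTCA, first base 61 before the start), a Sp1 site (GGGCGG, 52 before the start) and a TATA box (TATAAA, 31 before the start).
Areg: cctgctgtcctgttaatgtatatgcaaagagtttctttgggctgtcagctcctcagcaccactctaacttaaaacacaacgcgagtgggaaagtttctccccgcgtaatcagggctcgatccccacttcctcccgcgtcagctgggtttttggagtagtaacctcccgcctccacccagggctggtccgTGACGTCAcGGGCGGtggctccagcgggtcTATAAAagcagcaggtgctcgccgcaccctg
The full cAMP response element was present in 1.55% of 32851 promoters of this length, the TATA box (sense strand) in 7.59% and the Sp1 site (either strand) in 32.7%. No AP-1 letters (TGANTCA, either strand) were found in this stretch, which 6.75% of promoters held. These matches describe the letters only.

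Over the 6 hearts, Areg averaged 280 ± 312 CPM (SD, n = 6) in annotated Tregs and 115 ± 61.4 CPM in Tem/eff. Tregs were above Tem/eff in 4 of 6 hearts, so the order of the leading types did not hold in every graft. Monocyte-derived dendritic cells (Mo-DCs) followed at 53.9 ± 67.6 CPM, with 30 of their 41 Areg UMIs in 2 cells, unconventional T cells at 49.8 ± 50.3 CPM and NKT cells at 29.3 ± 24.8 CPM, and none of these neighbours differed beyond its spread. The Mo-DC cell with the most Areg held 2 of 6 basophil or mast cell markers, and 8 of 204 Mo-DCs held 3 or more. The summed level of that list in Mo-DCs was 0 to 548 CPM in hearts 1 to 3 and 0 to 1110 CPM in hearts 4 to 6, with no marker at 0 throughout, and its part in the Areg values was not tested. B cells, which are not known as a source, held an Areg UMI in 2 of 286 cells (0.699%, at a median of 2292 UMIs per cell). Tregs held one in 16.3% of cells (95% Wilson interval 12.4 to 21.3, median 2860 UMIs) and Tem/eff in 24.5% (20.1 to 29.4, median 5694 UMIs). After every cell was thinned to 1500 UMIs the shares were 14.1% in Tregs and 10.7% in Tem/eff, so the order of the shares turned with depth. These intervals cover counting error only.

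Areg transcripts were concentrated in few cells. The 263 annotated Tregs held 252 Areg UMIs, and 16 of these cells (6.08%) held 128 of them (50.8%). Those 16 cells were the ones with 3 or more of 7 ILC2 markers (Gata3 and Klrg1, which tissue Tregs also make, and Calca, Hs3st1, Il17rb, Il5 and Ptgir). Of the 16, 13 held Areg, 14 held Il1rl1 (the IL-33 receptor ST2) and 1 held Foxp3. The T cell receptor complex (Trac, Cd3d, Cd3e, Cd3g) went undetected in 8. Of the other 247 Tregs, 30 (12.1%) had an Areg UMI. All 7 ILC2 markers were detected in annotated Tregs, and their summed level was 727 to 1532 CPM in hearts labelled IL-33+ and 417 to 2118 CPM in hearts labelled IL-33-. In heart 2, the heart with the highest Areg level in Tregs, 4 such cells held 83 of 95 Areg UMIs, and 2 cells alone held 75. Neither had a Foxp3 UMI, and they carried 16 and 21 UMIs of Il1rl1 and 26 and 24 of Gata3. They also held 5 and 4 of 6 T cell markers and 4 of 9 Treg markers each. Outside the Tregs, the cell with the most Areg of all, with 43 UMIs, was annotated as an NKT cell of heart 3, and it had a Foxp3 UMI and 7 of 9 Treg markers.

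Whether graft IL-33 goes with more Areg in Tregs is a question that the study also took up by flow cytometry. The paper reports lower frequencies of ST2+ and Areg+ Tregs without graft IL-33, in Bm12 grafts and in grafts without the MHC mismatch. It found the Areg level of Tregs significantly higher with IL-33 only in the latter. Those were protein measures in other grafts, while the values here are RNA. In annotated Tregs, Areg stood at 81.1, 856 and 379 CPM in hearts 1 to 3 (439 ± 391 CPM, SD, n = 3) and at 36.6, 68.3 and 261 CPM in hearts 4 to 6 (122 ± 122 CPM, SD, n = 3). Heart 1 was below heart 6, so the groups overlapped. The fold change was 1.65 on the log2(mean CPM + 10) scale (SE 0.53), with an unadjusted p of 0.00399 and an adjusted p of 0.741 by limma, and the two-sided exact permutation p was 0.2, where 0.1 is the smallest that 3 hearts against 3 can give. The limma SE and p-value use a variance drawn toward that of other genes, while the permutation p uses the 6 Areg values alone. Of the 7276 genes tested in Tregs, 5.09% stood at an unadjusted p of 0.05 or below. Without heart 1 the fold change was 2.54 with an adjusted p of 0.0141, and without heart 2 it was 0.92 with an adjusted p of 0.997, so single hearts decided the call.

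Without the 16 cells rich in ILC2 markers, Areg in Tregs was 81.1, 189 and 290 CPM in hearts 1 to 3 and 36.6, 0 and 243 CPM in hearts 4 to 6. Heart 2 fell from 856 to 189 CPM, and the group means became 187 ± 105 and 93.1 ± 131 CPM (SD, n = 3). The difference of the group means fell from 317 to 93.6 CPM (exact permutation p = 0.4). On the log2 scale, with heart 5 now at 0 CPM, the fold change was 1.84 (SE 0.64, adjusted p = 0.777 by limma). Cells were also chosen by Foxp3 itself. Among the 51 annotated Tregs with a Foxp3 UMI, Areg was 25.8, 690 and 1495 CPM in hearts 1 to 3 and 17.8, 0 and 51.1 CPM in hearts 4 to 6, and the groups overlapped at hearts 1 and 6 (exact permutation p = 0.2). Among the 109 cells of any T cell type with a Foxp3 UMI, Areg was 40.1, 438 and 1003 CPM in hearts 1 to 3 and 13.5, 0 and 25.6 CPM in hearts 4 to 6. These groups did not overlap (exact permutation p = 0.1, the smallest possible), and the fold change was 3.80 (SE 0.81, adjusted p = 0.207 by limma). These values rest on 118 Areg UMIs, of which 102 came from 24 cells of heart 3 and 43 of those from the single NKT-annotated cell named above, and on 5 cells in heart 2. With annotated Tregs limited to those with a T cell receptor complex UMI, the fold change was 2.66 (SE 0.69, adjusted p = 0.319 by limma).

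**Figure D2:**
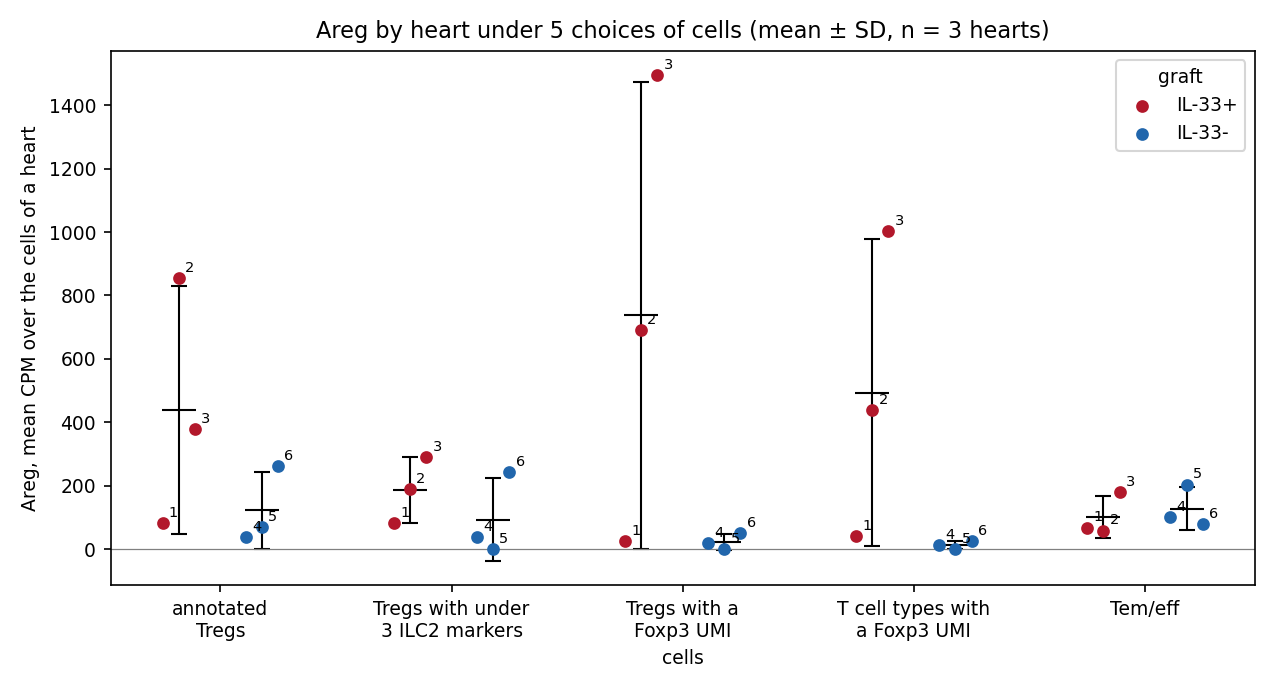
Areg by heart (points numbered 1 to 6, red IL-33+ and blue IL-33-) under 5 choices of cells, as mean CPM over the cells of a heart, with bars for the mean ± SD of 3 hearts. Heart 2 leads among annotated Tregs at 856 CPM and drops to 189 without the cells rich in ILC2 markers, and the groups separate only among T cell types with a Foxp3 UMI.

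The share of Tregs with an Areg UMI, at 1500 UMIs per cell, was 14.8%, 28.0% and 16.3% in hearts 1 to 3 and 7.27%, 4.00% and 15.2% in hearts 4 to 6. The means were 19.7% ± 7.22 for the IL-33+ label and 8.81% ± 5.73 for the IL-33- label (SD, n = 3, exact permutation p = 0.2). Within Tregs, Il1rl1 was found in 39.5% of the 43 cells with an Areg UMI and in 10.5% of the 220 without. Foxp3 was found in 20.9% and 19.1%. These shares pool the cells of all hearts. They include the cells rich in ILC2 markers, most of which held Areg and most of which held Il1rl1, and the contrast without them was not tested.

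In Tem/eff, Areg was 67.7, 58.6 and 179 CPM in hearts 1 to 3 and 101, 204 and 79.4 CPM in hearts 4 to 6, and the groups overlapped (log2 fold change -0.36, SE 0.32, adjusted p = 0.999 by limma). The difference between Tregs and Tem/eff within a heart was compared between the groups directly, and gave 2.01 on the log2 scale (SE 1.03, unadjusted p = 0.0821, adjusted p = 0.958 by limma). Areg was not among the 5.04% of 7219 genes that stood at an unadjusted p of 0.05 or below in that comparison.

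Counted over all cells, the 6 hearts held 886 Areg UMIs, 29.6% in Tem/eff and 28.4% in Tregs. Tregs held 8.99%, 73.6% and 26.3% of the Areg UMIs of hearts 1 to 3 and 5.26%, 10.5% and 32.9% of those of hearts 4 to 6 (exact permutation p = 0.6). Heart 2 stood alone among the 6. Without the cells rich in ILC2 markers its share was 26.1%, and the 6 hearts ranged from 0% to 29.0%. Tem/eff held 28.1%, 8.53% and 20.8% of the Areg UMIs in hearts 1 to 3 and 53.7%, 76.3% and 38.0% in hearts 4 to 6. These shares did not overlap, with the higher ones in hearts labelled IL-33- (exact permutation p = 0.1). The Tem/eff share was looked at after the Treg share was seen. As parts of a whole the shares depend on each other, and the Areg level of Tem/eff itself overlapped between the groups. Tem/eff made up 6.24%, 10.0% and 5.16% of the cells of hearts 1 to 3 and 7.66%, 14.8% and 10.4% of those of hearts 4 to 6. The median depth of Tem/eff cells was also higher in hearts 4 to 6 (5678 to 6316 UMIs) than in hearts 1 to 3 (5129 to 5506 UMIs). The part of cell number and depth in the result was not tested.

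**Figure D3:**
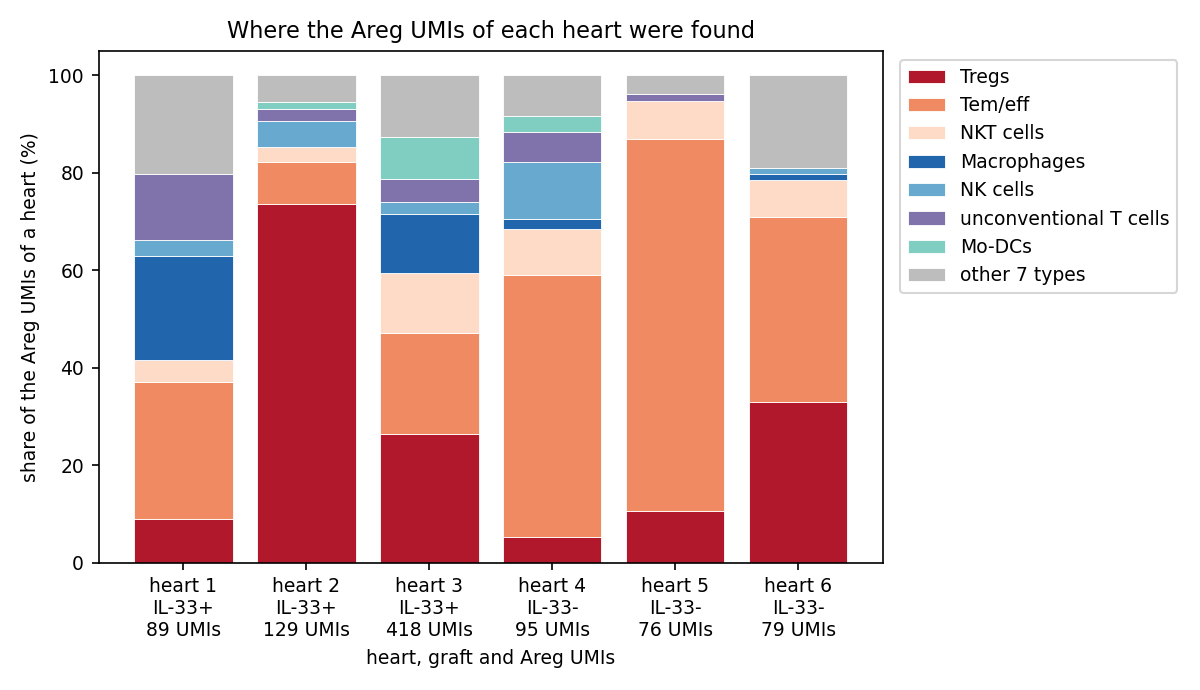
Share (%) of the Areg UMIs of each heart found in each annotated type, with the UMI total under each bar. Tregs take 73.6% in heart 2 and 32.9% or less elsewhere, and Tem/eff take 38.0% or more in hearts 4 to 6.

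Across the 8 genes, 46 of 112 pairs of gene and type had enough UMIs for a test, and no pair was called at an adjusted p of 0.05, against 0.00883% of all 113203 gene and type tests. At an unadjusted p of 0.05 or below stood 5 pairs (10.9%), against 4.71% of all tests, and the groups did not overlap in 3 pairs (6.52%), against 9.81%. The pairs share the same 6 hearts and are not independent. The 5 pairs were Areg in Tregs and in unconventional T cells, Hbegf in macrophages, Tgfa in central memory T cells (Tcm) and Adam17 in fibroblasts. The fold change was above 0 in 4 of the 5, Tgfa being the exception. Over the types tested, the fold change of Areg was above 0 in 9 of 10 and that of Tgfa in 0 of 6 (1 of 6 with a pseudocount of 1 CPM). Some of these pairs rested on few UMIs, such as 10 for Tgfa in unconventional T cells. Others leaned on a single heart, such as heart 3 with 51 of the 73 Areg UMIs of macrophages. The share of all genes with a fold change above 0 is not given here, so these counts are not read as a trend.

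In unconventional T cells, Areg was 37.7, 140 and 68.2 CPM in hearts 1 to 3 and 42.2, 10.6 and 0 CPM in hearts 4 to 6 (log2 fold change 1.90, SE 0.85, unadjusted p = 0.0323, adjusted p = 0.984 by limma). Hearts 2, 5 and 6 gave only 2, 7 and 4 of these cells, and without these 3 hearts the fold change was 0.23 (SE 0.53, unadjusted p = 0.671 by limma). This type also held markers of another: 64 of its 83 cells held 3 or more of 9 macrophage markers and 50 held 3 or more of 6 T cell markers. The summed macrophage markers stood at 2100 to 3486 CPM under the IL-33+ label and at 3192 to 4854 CPM under the IL-33- label, and their part in the Areg values was not tested.

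Hbegf was, like Ereg, highest in annotated fibroblasts. Fibroblasts held 649 of 879 Hbegf UMIs, at 199 ± 129 CPM (SD, n = 6), ahead of Mo-DCs at 53.6 ± 71.9 and macrophages at 30.7 ± 30.2 CPM. Fibroblasts were above Mo-DCs in 5 of 6 hearts. An Hbegf UMI was found in 31.2% of fibroblasts (median 5790 UMIs) and in 1.88% of Tcm (median 4039 UMIs), the lowest share of any type. Within the annotated fibroblasts, 59.4% of the 69 cells with 3 or more endothelial markers had an Hbegf UMI (95% Wilson interval 47.6 to 70.2) and 24.8% of the 306 others (20.3 to 30.0). Their mean levels were 506 and 143 CPM over cells, and the cells rich in endothelial markers were higher in each of the 5 hearts that had both kinds. The cells with fewer held 73.5, 0 and 161 CPM in hearts 1 to 3 and 127, 0 and 136 CPM in hearts 4 to 6. Mo-DCs held 93.4, 0 and 31.2 CPM and 14.9, 0 and 182 CPM, so without the cells rich in endothelial markers fibroblasts did not lead in every heart. By graft, Hbegf in fibroblasts was 130, 277 and 203 CPM in hearts 1 to 3 and 380, 0 and 203 CPM in hearts 4 to 6, with only 4 cells in heart 5 (log2 fold change 1.12, SE 0.70, adjusted p = 0.998 by limma). Over the cells with fewer endothelial markers the sign turned (-0.16, SE 0.73, adjusted p = 0.999), as it did without the 2 hearts that had fewer than 10 fibroblasts (-0.74). In macrophages, Hbegf was 13.0, 84.8 and 47.8 CPM in hearts 1 to 3 and 15.9, 16.6 and 5.99 CPM in hearts 4 to 6. Heart 1 sat among the hearts labelled IL-33-, and heart 2 had 10 macrophages (log2 fold change 1.17, SE 0.52, unadjusted p = 0.0347, adjusted p = 0.987 by limma, with 4.04% of genes at this unadjusted level in macrophages). Without heart 2 it was 0.71 (unadjusted p = 0.145). In Mo-DCs, 28 Hbegf UMIs gave a fold change of -0.06 (SE 1.29, adjusted p = 1.00 by limma). Of these 204 cells, 51 held 3 or more of 8 neutrophil markers, whose part in the values was not tested.

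Ereg, though next to Areg in the genome, was found in other cells. Fibroblasts held 151 of its 184 UMIs, at 63.4 ± 54.8 CPM (SD, n = 6), and no other type reached 5 CPM. Of 306 fibroblasts with fewer endothelial markers 62 had an Ereg UMI (20.3%), against 2 of 69 with 3 or more (2.90%). By graft it was 130, 0 and 51.6 CPM in hearts 1 to 3 and 18.2, 52.3 and 128 CPM in hearts 4 to 6 (log2 fold change -0.50, SE 0.76, adjusted p = 0.998 by limma). The 2 groups covered the same range.

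Egfr, the receptor that Areg, Ereg, Hbegf and Tgfa share, was a fibroblast transcript. The 250 bases before its start, on chromosome 11 (RefSeq, build GRCm38.p6, chr11:16751953-16752202, forward strand), are shown for contrast with the Areg promoter, with the single Sp1 site found, on the reverse strand, in capitals.
Egfr: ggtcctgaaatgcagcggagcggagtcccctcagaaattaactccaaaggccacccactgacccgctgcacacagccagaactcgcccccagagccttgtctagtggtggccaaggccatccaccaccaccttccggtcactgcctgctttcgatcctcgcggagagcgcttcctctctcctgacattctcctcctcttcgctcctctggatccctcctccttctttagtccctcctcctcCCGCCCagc
The cAMP response element, TATA box and AP-1 letters seen or searched for in the Areg stretch were not found here.

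Of 201 Egfr UMIs, 176 lay in fibroblasts, and 24 of 4066 cells outside them had one (0.590%). Fibroblasts averaged 80.7 ± 24.7 CPM (SD, n = 6), were above the next type in all 6 hearts, and had an Egfr UMI in 32.0% of cells (95% Wilson interval 27.5 to 36.9). All 120 of these cells were among the 306 with fewer endothelial markers (39.2%). None of the 69 cells with 3 or more had one, which allows a share of up to 4.35% from a limit of 3 counts and 5.27% by the Wilson interval, although their median depth was about that of the others (5797 and 5728 UMIs). Within this 1 annotated type, Egfr and Ereg lay mostly in the cells with few endothelial markers, and the Hbegf level was higher in the rest. Egfr was 65.8, 105 and 79.5 CPM in hearts 1 to 3 and 40.1, 102 and 91.4 CPM in hearts 4 to 6, and the groups overlapped (log2 fold change 0.15, SE 0.51, adjusted p = 0.998 by limma). Erbb2, the shared partner receptor, gave 33 UMIs in all, 26 of them in fibroblasts at 10.8 ± 6.72 CPM (SD, n = 6), and its fold change was -0.48 (SE 0.68, adjusted p = 0.998 by limma).

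**Figure D4:**
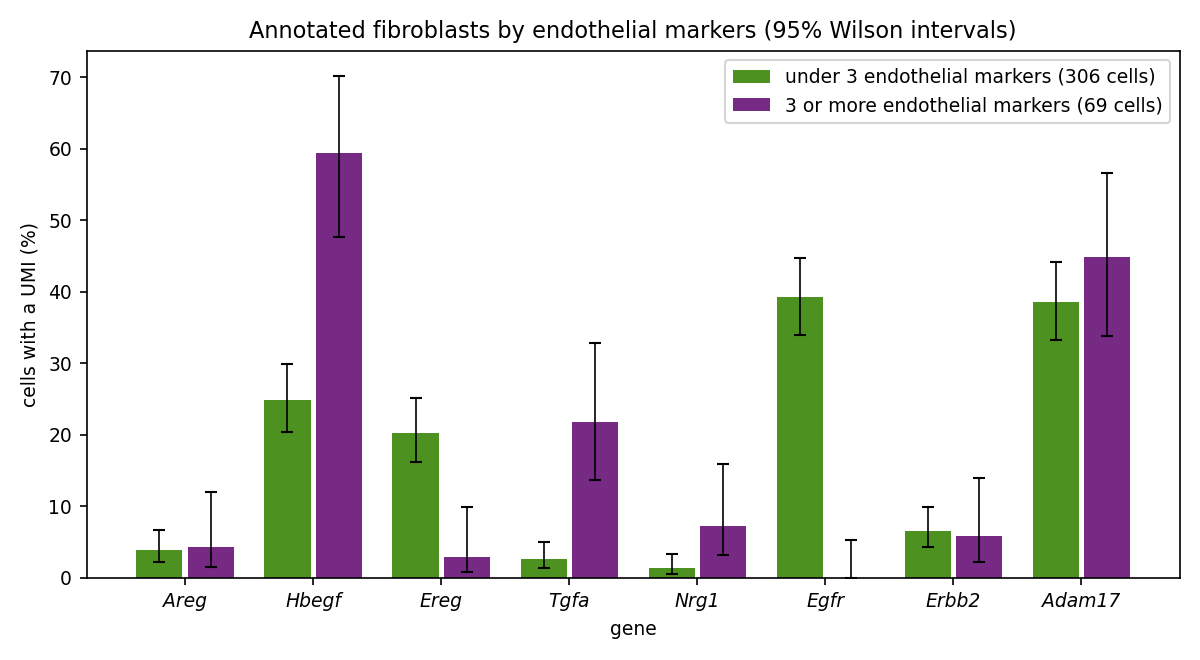
Share (%) of annotated fibroblasts with a UMI of each gene, for the 306 cells with under 3 endothelial markers (green) and the 69 with 3 or more (purple), with 95% Wilson intervals for counting error. Egfr and Ereg sit in the first kind, at 39.2% and 20.3%, and Hbegf and Tgfa are more frequent in the second, at 59.4% and 21.7%.

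Tgfa gave 207 UMIs in all. Over whole annotated types it was highest in lymphocytes, and averaged 27.2 ± 12.1 CPM in NK cells, 23.2 ± 28.0 in Tcm and 22.3 ± 12.5 in NKT cells (SD, n = 6), and these neighbours did not differ beyond their spread. In Tcm, it was 0, 0 and 13.9 CPM in hearts 1 to 3 and 75.2, 20.1 and 29.8 CPM in hearts 4 to 6, from 3 and 27 UMIs (log2 fold change -1.81, SE 0.52, unadjusted p = 0.00123, adjusted p = 0.951 by limma, exact permutation p = 0.1). In NK cells it was 18.1, 14.4 and 22.8 CPM against 26.9, 48.0 and 32.8 CPM (log2 fold change -0.67, SE 0.37, adjusted p = 0.846 by limma, exact permutation p = 0.1). The hearts labelled IL-33- were the higher ones in both types, and the groups did not overlap in either. Within fibroblasts, Tgfa was found in 21.7% of the 69 cells with 3 or more endothelial markers (49.5 CPM over cells, 20 UMIs). It was found in 2.61% of the others (3.34 CPM). By heart, the 69 cells held 0, 0 and 61.1 CPM in hearts 1 to 3 and 30.3 and 30.5 CPM in hearts 4 and 6. The level over cells is not ranked against the lymphocyte types, whose means were taken over hearts. Depth also differed between types. With every cell thinned to 1500 UMIs, Tgfa was found in 0.267% of all fibroblasts, 3.33% of NK cells and 4.14% of Tcm.

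Over whole annotated types, Nrg1 was highest in myeloid cells. Monocytes held 179 of 532 UMIs at 152 ± 75.3 CPM (SD, n = 6), with an Nrg1 UMI in 40.9% of cells, and macrophages held 211 at 100 ± 105 CPM, with one in 19.6%. None of 266 Tcm cells had one. Monocytes were above macrophages in 4 of 6 hearts. In monocytes, Nrg1 was 179, 277 and 65.0 CPM in hearts 1 to 3 and 174, 112 and 103 CPM in hearts 4 to 6 (log2 fold change 0.23, SE 0.43, adjusted p = 0.970 by limma). In macrophages, it was 81.9, 298 and 38.4 CPM against 24.7, 30.6 and 128 CPM (log2 fold change 0.94, SE 0.55, adjusted p = 0.987 by limma, and 0.20 without heart 2). Both sets of values overlapped between the grafts, and hearts 2 and 5 had only 5 and 7 monocytes. In fibroblasts, 51 of 72 Nrg1 UMIs came from 1 cell. Over the fibroblasts with 3 or more endothelial markers, Nrg1 was 134 CPM in heart 3 and 67.4 CPM in heart 6. It was 0 CPM there in hearts 1, 2 and 4.

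**Figure D5:**
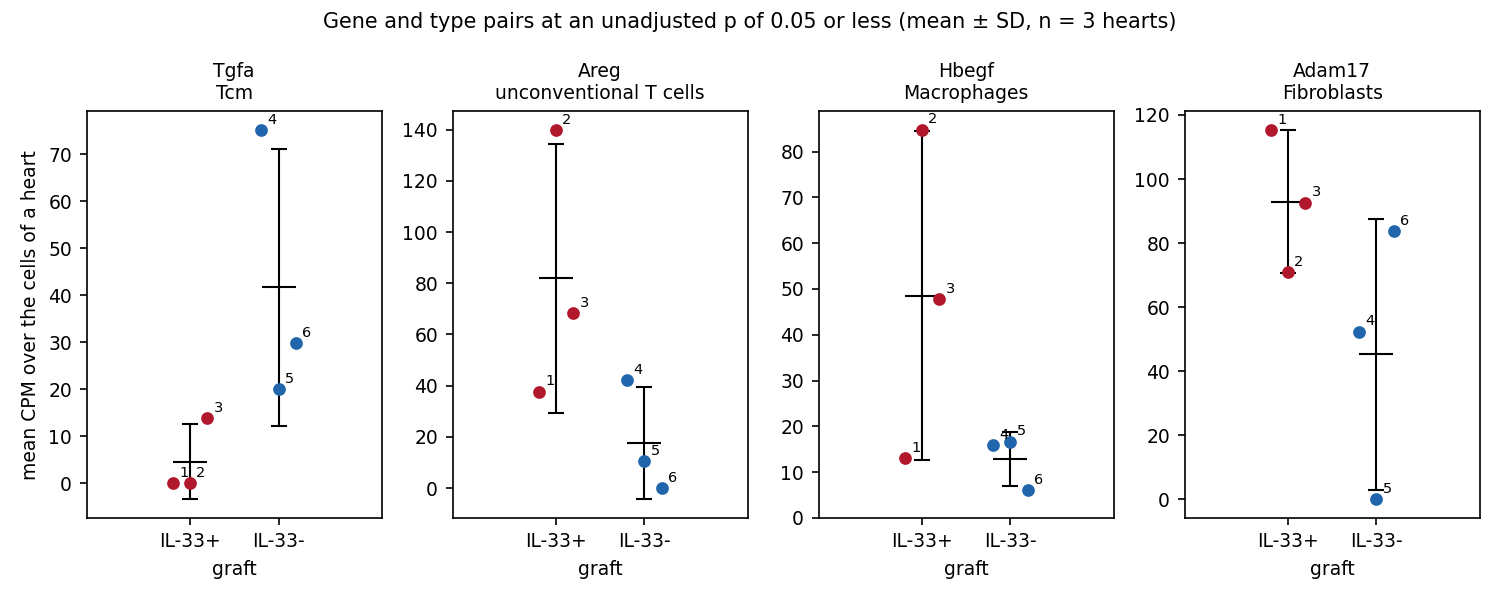
Mean CPM by heart (points numbered 1 to 6, with the mean ± SD of 3 hearts) for the 4 pairs of gene and type, other than Areg in Tregs, at an unadjusted p of 0.05 or less. Tgfa in Tcm is the only one of the 4 in which the groups do not overlap, with hearts 4 to 6 at 20.1 CPM or more and hearts 1 to 3 at 13.9 or less.

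Adam17, the sheddase of these ligands, had 1911 UMIs in 28.3% of all cells. It was highest in monocytes at 192 ± 25.6 CPM, Mo-DCs at 186 ± 137 and macrophages at 169 ± 28.6 (SD, n = 6), and lowest in naive T cells (Tn). Of these 3 leading types Mo-DCs varied most, and their order did not exceed the spread. In monocytes it was 174, 222 and 215 CPM in hearts 1 to 3 and 207, 167 and 166 CPM in hearts 4 to 6 (log2 fold change 0.17, SE 0.35, adjusted p = 0.970 by limma), and in Mo-DCs the fold change was 0.74 (SE 0.72, adjusted p = 1.00). In fibroblasts it was 115, 70.9 and 92.6 CPM against 52.4, 0 and 83.7 CPM (log2 fold change 1.38, SE 0.66, unadjusted p = 0.0439, adjusted p = 0.998 by limma). There, 1 of 8 members reached that unadjusted level, against 3.16% of genes in fibroblasts. Heart 5, at 0, gave 4 fibroblasts, and without it the fold change was 0.41 (SE 0.44, unadjusted p = 0.369). Without both hearts that had fewer than 10 fibroblasts it was 0.57 (unadjusted p = 0.126 by limma). In Tem/eff, named after its values were seen, the grafts did not overlap, with 34.0, 41.6 and 54.5 CPM in hearts 1 to 3 and 60.1, 54.7 and 82.6 CPM in hearts 4 to 6 (log2 fold change -0.51, SE 0.30, adjusted p = 0.999 by limma).

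The other genes of the pathway gave 212 tests over 25 genes found in the table, and none was called at an adjusted p of 0.05. Of these tests, 18 (8.49%) stood at an unadjusted p of 0.05 or below, 6 with a fold change above 0 and 12 with one below, against 4.71% of all gene and type tests. The remaining ligands Btc, Egf, Epgn, Nrg2 and Nrg4 gave 2 to 32 UMIs each. The receptor Erbb4 gave 10 UMIs, and Erbb3 gave 57, with its highest level in Tregs at 12.2 ± 11.4 CPM (SD, n = 6). Partners of shedding accounted for 4 of 66 tests (6.06%, near the share of all tests), namely the tetraspanin Cd9 in macrophages (log2 fold change -1.07, SE 0.27, adjusted p = 0.894 by limma) and cDCs (-1.12, SE 0.31, adjusted p = 0.372 by limma), Frmd8 in macrophages (-1.10) and Rhbdf2, an iRhom that escorts ADAM17, in Tcm (-1.26). Timp3, an inhibitor of ADAM17, was highest in fibroblasts at 791 ± 348 CPM. Adaptors that link the receptors to Ras signalling accounted for 3 of 60 tests, or 5.00% (Gab1 in macrophages at 1.15, Ptpn11 in NKT cells at 0.94 and Shc1 in Trm-like cells at -1.50).

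Feedback inhibitors of EGF receptor and Ras-ERK signalling accounted for 11 of 85 tests (12.9%, against 4.71% of all tests), 4 with a fold change above 0 and 7 below. These tests share hearts and genes, and none passed the adjusted threshold. Errfi1, which binds and blocks the EGFR kinase, was highest in fibroblasts at 663 ± 174 CPM, and had a fold change of 0.86 in macrophages (SE 0.31, adjusted p = 0.987) and -1.72 in Tn (SE 0.70, adjusted p = 0.952 by limma). In fibroblasts, Spred1 had a fold change of 1.95 (SE 0.63) and Spry1 of 1.55 (SE 0.65), both with an adjusted p of 0.998 by limma. Spred1 also passed the unadjusted level in Tem/eff (1.12), monocytes (-1.72) and unconventional T cells (-1.82). Dusp6, a phosphatase of ERK, had fold changes of -0.84 in Tcm, -0.57 in Tem/eff and -1.74 in Trm-like cells, and Cbl, a ubiquitin ligase of EGFR, of -0.78 in Tregs, none past the adjusted threshold.

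Over 72 heart-by-type means with at least 10 cells, the 5 genes most like Areg in level were Il2ra (Pearson r = 0.73), Foxp3 (0.71), Plagl1 (0.71), Tnfsf8 (0.71) and C2cd4b (0.71). Il2ra and Foxp3 were highest in Tregs, the other 3 in Tem/eff. For Hbegf they were Pmp22 (0.78), Cxcl1 (0.76), Gas6 (0.75), Fosb (0.75) and Lpar1 (0.73), and for Egfr Foxp2 (0.88), Tmem45a (0.88), Twist1 (0.88), Gm42679 (0.86) and Gata6 (0.86), all highest in fibroblasts. The means share hearts and types, so these values are descriptions without a p.

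In annotated Tregs, Il1rl1 was 305, 578 and 611 CPM in hearts 1 to 3 and 169, 213 and 859 CPM in hearts 4 to 6 (log2 fold change 0.58, SE 0.37, adjusted p = 0.946 by limma), and Foxp3 was 156, 110 and 68.9 CPM against 255, 76.1 and 124 CPM (log2 fold change -0.32, SE 0.40, adjusted p = 0.976). Heart 6, which had the most Areg in Tregs among hearts 4 to 6, also had the most Il1rl1 there. Over all 6 hearts the orders differed, since heart 6 had the most Il1rl1 and heart 2 the most Areg (856 CPM, against 261 CPM in heart 6).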

How the data were processed

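Per the labels and the paper's methods, mononuclear cells of 6 heart grafts were hashtagged, pooled and sequenced with 3′ single-cell chemistry, and the authors used Cell Ranger (mm10) and Partek Flow 10.0.23.0425. The deposited table holds log2(CPM + 1) per cell, filtered by the authors on counts, genes and mitochondrial share to drop low-quality cells and doublets, and a hashtag file gives type, graft and heart. Beyond that filter doublets were kept, and an alternative left out the 6% of cells with the highest scores from scrublet in scanpy 1.11.5.

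UMIs were recovered from the steps of the values (99.94% of low values lay within 0.05 of a whole UMI). Mean CPM was taken per heart and type, and log2(mean CPM + 10) was fitted with limma 3.58.1 in R 4.3.3 (lmFit, eBayes with trend), for genes with at least 10 UMIs and a UMI in at least 3 hearts, with Benjamini-Hochberg adjustment over all genes of a type. Single values were tested with exact permutation tests, two-sided, over 20 ways to divide 6 hearts. The fits were tested on simulated data, with large changes set in genes of higher counts and a modest spread between hearts. That test does not cover genes with few UMIs or a spread as wide as that of Areg in Tregs. CPM is relative to a cell's other RNA. Hearts, digested and tagged one by one, were the replicates. Exact permutation p-values rest on the heart values of the gene alone. The limma SE and p-value use a variance drawn toward a trend over all genes of the type. They can therefore be smaller than the gene's own spread between hearts would give.

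The 8 genes, the pathway and marker lists and the tests were chosen with earlier results of these data known. Named with a fold change were each gene in the 2 tested types with its highest level and every pair at an unadjusted p of 0.05 or less. Other pathway genes were named at that p or as 1 of the 3 highest in their role. For likeness, the 5 genes with the highest Pearson r among those reaching 50 CPM in a type were named. Alternatives were pseudocounts of 1 and 50 CPM, summed UMIs, no low filter, equal medians, limma without trend, limma-voom, other cell choices and leaving out hearts.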

Additional observations from a re-analysis of the deposited data

How the results depend on the processing

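No paired analysis was possible because nothing in the labels ties a heart of one graft to a heart of the other. Areg in Tregs stayed higher in hearts labelled IL-33+ in the 11 alternatives that kept all 6 hearts (1.33 to 3.80, adjusted p 0.126 to 0.947) and with each heart left out (0.92 to 2.54, adjusted p 0.0141 to 0.998). It was called only without heart 1, which made the count of called pairs range from 0 to 1. The difference between Tregs and Tem/eff stayed positive (1.58 to 2.16, and 1.00 to 2.99 with a heart left out) and uncalled. Pairs at an unadjusted p of 0.05 or less numbered 5 of 46 and became 2 with a pseudocount of 1 CPM, 3 with summed UMIs, 3 of 97 with no filter on low counts, 8 of 45 without hearts under 10 cells of a type, and 3 to 7 with a heart left out (3 without heart 2 or heart 5). Setting hearts to the same median moved the median fold change of all genes by over 0.1 in B cells, from 0.28 to -0.58, where Adam17 was the single member tested. The difference in the share of Tregs with an Areg UMI was 10.9 percentage points (6.76 to 14.1 with a heart left out), and in the Treg share of all Areg UMIs 20.1 points (1.42 to 33.7).

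Signs of uncalled fold changes turned in 17 of 239 alternatives of named pairs, and the cause was not tested. Adam17 in monocytes turned with limma-voom (-0.044). Without hearts under 10 cells, Erbb2 (0.051), Ereg (0.58) and Hbegf (-0.74) in fibroblasts and Nrg1 in monocytes (-0.28) turned, and Hbegf in fibroblasts also turned over cells with fewer endothelial markers (-0.16, an alternative chosen after seeing the data). Hbegf in Mo-DCs turned with a pseudocount of 1 CPM (0.020) and without high doublet scores (0.080). With a heart left out, the ranges were -0.81 to 0.011 for Areg in Tem/eff, -0.21 to 0.37 for Egfr, -1.33 to 0.58 for Ereg and -0.49 to 2.15 for Hbegf in fibroblasts, -0.99 to 1.15 for Hbegf in Mo-DCs and -0.20 to 0.77 for Nrg1 in monocytes. Hearts 2 and 5 held the fewest cells, 230 and 284, and 66 of 112 pairs had too few UMIs for a test.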
